A study of Mus musculus with 4 samples.

Results

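The genes of the cytosolic ribosomal proteins were read in whole hearts of Klf9 knockout and wild-type mice. They were taken by gene symbol: every row named Rpl or Rps with a number and an optional letter a, x, y or l, with Rplp0, Rplp1, Rplp2 and Rpsa added and Rpl3 and its muscle paralog left out. This gave 78 of 17485 genes, 47 of the large subunit and 31 of the small subunit. The pattern misses Rps3a1, a small subunit gene whose symbol ends in a digit, so the 78 are not the full set. The rule reads symbols and no measured value, but the members were chosen with earlier results of these data known.

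Total RNA of hearts came from male Klf9 KO mice and male WT mice, both aged 8 weeks and fed freely, in 2 libraries per group, and the study asked how Klf9, a zinc finger factor of the Krüppel-like family, bears on mitochondrial function in the heart. The labels did not give the knockout allele, whether Klf9 was removed from all cells or from some, the strain, or whether each library is a different animal. The p-values therefore cover the spread among these 4 libraries and no more. The deposited table held the authors' log2 ratios for each of the 4 pairs of a Klf9 KO and a WT library, and a value for each library was recovered from them. The sources used here give neither their unit nor the depth of the libraries. Single genes are therefore not ranked by level against each other. Sums over genes and classes by mean value take all genes to be on 1 scale, which is not so for an expected 7.61% of them, whose recovered level is too low. Each log2 fold change rests on 2 libraries per group.

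The cytosolic ribosome reads messenger RNA into protein. Its small subunit decodes the message, its large subunit joins amino acids, and the stalk of the large subunit, built from Rplp0, Rplp1 and Rplp2, recruits the elongation factors. Most of the proteins are present once per ribosome, and their messages carry a run of pyrimidines at the very start (a terminal oligopyrimidine tract, TOP) through which mTOR signalling and Larp1 control their translation. Messages of this family are short and abundant in every cell, the heart included.

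Start regions of 5 members are shown because Rpl34 and Rps16 are among the 4 members that passed the test below, because Rps24 and Rpl35 are among the 4 that differed most between the WT libraries, and because a near-identical copy of Rps27 passed the test. Sequences are from RefSeq on GRCm38.p6, 5′ to 3′ on the strand of the gene. The first pair runs from 250 bases before to 20 bases after the annotated start, and capitals mark the GC box GGGCGG and the CACCC box, letters that Krüppel-like factors are known to bind, on either strand.
Rpl34 (minus strand, chr3:130730379-130730648): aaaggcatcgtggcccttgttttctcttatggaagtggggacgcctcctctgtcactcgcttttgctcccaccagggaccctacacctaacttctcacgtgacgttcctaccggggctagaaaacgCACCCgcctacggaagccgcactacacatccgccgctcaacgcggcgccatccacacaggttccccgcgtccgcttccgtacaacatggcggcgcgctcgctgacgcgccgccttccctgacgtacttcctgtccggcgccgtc
Rps16 (plus strand, chr7:28350439-28350708): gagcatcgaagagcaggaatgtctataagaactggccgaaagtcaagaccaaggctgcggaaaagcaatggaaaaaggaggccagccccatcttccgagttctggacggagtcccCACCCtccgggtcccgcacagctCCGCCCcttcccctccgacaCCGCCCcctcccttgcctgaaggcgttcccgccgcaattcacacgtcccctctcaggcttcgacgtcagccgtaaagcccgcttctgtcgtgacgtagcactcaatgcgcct
The other 3 run from 30 bases before to 20 bases after the start, and capitals mark unbroken runs of at least 8 C or T.
Rps24 (plus strand, chr14:24490648-24490697): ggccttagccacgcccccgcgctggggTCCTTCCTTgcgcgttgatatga
Rpl35 (minus strand, chr2:39005112-39005161): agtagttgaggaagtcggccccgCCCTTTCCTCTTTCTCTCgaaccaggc
Rps27 (minus strand, chr3:90213629-90213678): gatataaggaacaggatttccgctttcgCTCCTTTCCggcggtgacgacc

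Promoters in the RefSeq table matched 59 members. A run of at least 8 C or T within 10 bases before to 20 bases after the start was in 21 of the 59, or 35.6%, against 11.2% of all 27025 promoters. GGGCGG on either strand was in 35 members (59.3%), against 35.9% of all promoters, and CACCC on either strand in 34 members (57.6%), against 56.7%. These are matches of letters, and annotated starts can lie some bases away from the base where transcription begins.

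Klf9 stood at 2.66 and 1.99 in the Klf9 KO libraries, against 74.9 and 58.8 in the WT libraries, which matches the labels. In the library labelled Klf9 KO-2, Y-linked genes went against the label of male sex: Ddx3y was 7.82 in Klf9 KO-1 and 0.01, the smallest step of the recovered values, in Klf9 KO-2, against 14.6 and 17.1 in WT. Cardiomyocyte markers were abundant in all 4 libraries, with a sum over 8 markers of 36627 to 38564 in Klf9 KO and 31972 to 37450 in WT. By the test below, which called 27.7% of all tested genes higher and 17.0% lower, Tnni3 was lower and the other 7 were not called. The log2 fold change was above 0 in Myl2, Myl3 and Myh6 and below 0 in the rest, with a median over the 8 of -0.37. Of 7 lymphocyte markers 6 were too low to test and Ptprc was lower. The sum over all 7 was 3.09 to 3.91 in Klf9 KO and 2.64 to 2.68 in WT. All 6 markers of cycling cells rose, with a summed level of 93.7 to 121 in Klf9 KO against 6.32 to 6.63 in WT. Over 7 red cell markers the sum was 12516 to 18948 in Klf9 KO against 10830 to 11077 in WT, with 1 called higher and 6 not called. Over 6 macrophage markers the sum was 42.7 to 43.3 against 128 to 172, with 5 called lower and 1 not called. Of 6 smooth muscle and pericyte markers 5 were higher and 1 lower, with a sum of 414 to 506 in Klf9 KO against 260.2 to 318.5 in WT. Of 6 fibroblast markers 2 were higher and 1 lower, with a sum of 841 to 919 against 412 to 591, and the 2 were the collagens Col1a1 and Col1a2. Of 6 endothelial markers 1 was higher, Cdh5 (177 and 185 in Klf9 KO against 103 and 97.0 in WT), 1 lower, Flt1, and 4 were not called. Over all 6 the sum was 421 to 432 against 358 to 374. Their part in the values of the ribosomal protein genes was not tested, and in whole hearts more RNA per cell and more cells of a type cannot be told apart.

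Across the 4 unscaled library pairs, ribosomal protein genes as a group had no single direction in Klf9 KO hearts. Against WT-1 the members' median log2 ratio was above 0 for both Klf9 KO libraries. Against WT-2 it was below 0 for Klf9 KO-1 and just above 0 for Klf9 KO-2. Scaling moved these ratios. With all 4 libraries, the members' median log2 fold change was above 0 as recovered (0.24) and after each scaling (0.09 to 0.38). That of all tested genes went from -0.01 to 0.24. Of 78 members, 77 passed the filter (2 or more libraries at a value of 1 or above). With all 4 libraries, 3 of the 77 rose (Rpl36, Rps16 and Rps20) and 1 fell (Rpl34), by limma on log2(value + 1) with a Benjamini-Hochberg adjusted p below 0.05 over all 12135 genes tested. The other 73 were not called. The shares over all tested genes were 27.7% higher and 17.0% lower. Of all calls 62.0% were thus higher, against 50.3% after median-of-ratios scaling and 70.4% with libraries scaled to equal sums, where 2 and 15 members were higher and 1 lower in each. The shares of all tested genes were then 21.7% and 31.9% higher and 21.4% and 13.4% lower. At an unadjusted p below 0.05 there were 8 members and 6362 of all tested genes. The remaining member, Rpl32l, a copy related to Rpl32, had 0.12 and 0.50 in Klf9 KO and 0.18 and 0.01 in WT and was not tested.

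The median log2 fold change of the 77 members was 0.24, with quartiles of -0.002 and 0.35, against a median of 0.12 over all tested genes. The members' median was 0.09 after median-of-ratios scaling, where that of all tested genes was -0.01, and 0.38 with equal sums, where that of all tested genes was 0.24. The log2 fold change was above 0 in 57 members as recovered, in 49 after median-of-ratios scaling and in 69 with equal sums. As recovered it was above 0 in 6976 of all 12135 tested genes. The large subunit genes had a median of 0.21 (46 tested) and the small subunit genes one of 0.25 (31 tested). Single genes had a median standard error of 0.25 among the members and of 0.19 among all tested genes.

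Against WT-1, most ribosomal protein genes were higher in the knockout. In the authors' deposited table, the log2 ratio of Klf9 KO-1 over WT-1 was above 0 in 71 of the 77 members, with a median of 0.38, and that of Klf9 KO-2 over WT-1 in 75, with a median of 0.64. Rpl34 and Rps13 were the exceptions for Klf9 KO-2. The medians over all tested genes for these pairs were 0.15 and 0.19.

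Against WT-2 the picture was another. In the authors' deposited table, the log2 ratio of Klf9 KO-1 over WT-2 was below 0 in 56 of the 77 members, with a median of -0.17, and that of Klf9 KO-2 over WT-2 was above 0 in 45 and below 0 in 32, with a median of 0.08. The medians over all tested genes were 0.10 and 0.14. A change of WT library thus moved the members' median by more than it moved that of all tested genes. These ratios are unscaled. Scaling to equal sums divides WT-2 by 1.13 and the Klf9 KO libraries by 0.94 and 0.96, which raises the ratios over WT-2. Median-of-ratios scaling divides WT-2 by 0.96 and the Klf9 KO libraries by 1.04 and 1.06, which lowers them.

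**Figure D1:**
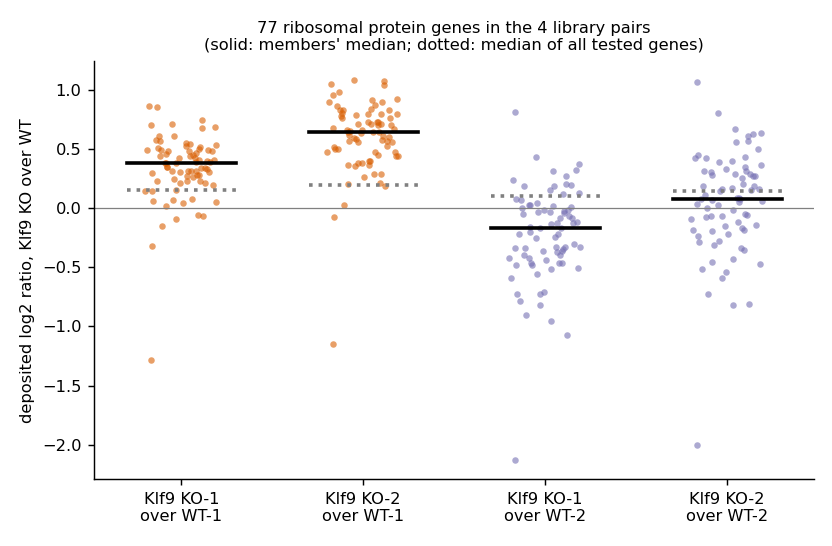
Deposited log2 ratio of each of the 77 tested members (points) in the 4 pairs of a Klf9 KO and a WT library, with the members' median (solid line) and the median of all tested genes (dotted line). Members centre on 0.38 and 0.64 against WT-1 and on -0.17 and 0.08 against WT-2, and the lowest point in each column is Rpl34.

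The WT libraries themselves were apart in these genes. WT-2 lay above WT-1 in 76 of 77 members, where 52.4% of all tested genes did so, and the median log2 ratio of WT-2 over WT-1 was 0.56 in the members and 0.03 in all tested genes. With libraries scaled to equal sums, chosen after seeing the data, the members' median was 0.36. The ratio reached at least 0.5 in 43 members, or 55.8%, against 16.3% of all tested genes. In 58 members (75.3%) the distance between the WT libraries was larger than the fitted difference between the groups, against 37.2% of all tested genes. The member with WT-2 below WT-1 was Rpl36, at 119.5 in WT-2 and 129 in WT-1.

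The Klf9 KO libraries also differed from each other in the same genes, by less. Klf9 KO-2 lay above Klf9 KO-1 in 76 of 77 members, against 56.6% of all tested genes, with a median log2 ratio of 0.27 in the members and 0.04 in all tested genes. Rps6, the small subunit protein phosphorylated downstream of mTOR, was the exception, at 6.66 in Klf9 KO-2 and 7.94 in Klf9 KO-1. Together the 78 members made up 4.59% and 5.44% of the summed values of all genes in Klf9 KO-1 and Klf9 KO-2, and 3.52% and 4.45% in WT-1 and WT-2. Both Klf9 KO shares were thus above both WT shares, by a small margin for Klf9 KO-1 over WT-2.

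Rps24, a small subunit protein, had the largest distance between the WT libraries. It stood at 448 and 492 in Klf9 KO, against 382 and 870 in WT, so that both knockout libraries lay between the WT ones. Rpl31 (120.4 and 159 in Klf9 KO, 85.9 and 181 in WT), a large subunit protein at the exit of the peptide tunnel, had the same order. Rpl35, which sits at the same exit, had 328 and 397 in Klf9 KO and 280.5 and 567 in WT. Rpl21 had 44.2 and 53.0 in Klf9 KO and 46.5 and 93.0 in WT. In Rpl21 Klf9 KO-1 lay just below WT-1. The log2 ratio of WT-2 over WT-1 was 1.19 in Rps24, 1.08 in Rpl31 and 1.01 in Rpl35, and Rpl21 came next. None of the 4 passed the test between the groups.

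In all, both Klf9 KO libraries lay between the WT libraries in 26 of the 77 members, against 10.1% of all tested genes. Both lay above both WT libraries in 21 members, against 45.2% of all tested genes, and below both in 2, Rpl34 and Rps13, against 30.2%. Members without such separation numbered 54, 32 of 46 in the large subunit and 22 of 31 in the small subunit.

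**Figure D2:**
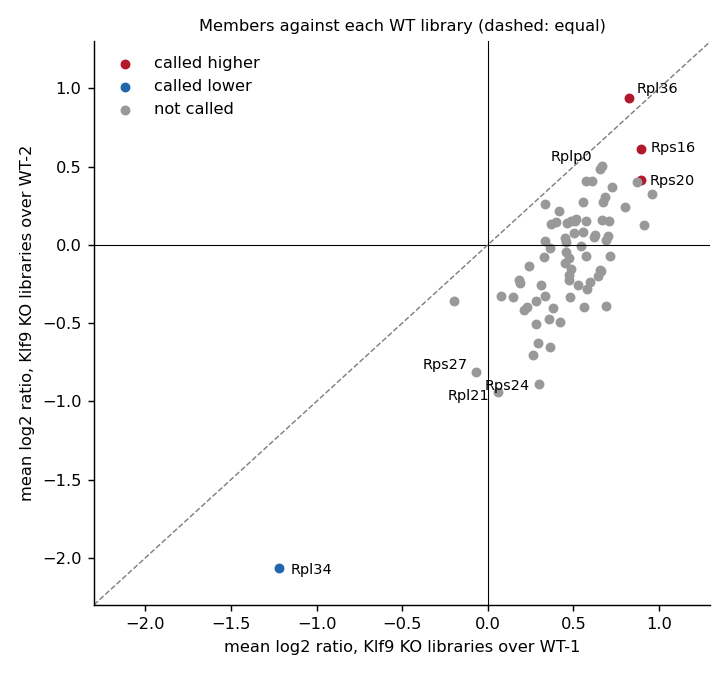
Mean log2 ratio of the 2 Klf9 KO libraries over WT-1 (horizontal axis) and over WT-2 (vertical axis) for each tested member, coloured by the call with all 4 libraries. Points lie below the dashed line of equal ratios wherever WT-2 was above WT-1, which holds for 76 of 77 members, and Rpl36 is the exception.

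The genes of the stalk and of Rpsa, the small subunit protein also known as the laminin receptor, moved little between the WT libraries for Rplp0 and Rplp2 and more for the other 2. Rplp0 had 646 and 773 in Klf9 KO against 446 and 498 in WT, and the groups did not overlap. Its log2 difference was 0.58 ± 0.23 (SE, 2 libraries in each group) with a limma adjusted p of 0.0647, so it did not pass. It was called higher with the replicate block (limma adjusted p = 0.0394), with neither trend nor robust moderation (0.0293), with equal sums (0.0151) and without either WT library. Rplp2 had 364 and 470.4 in Klf9 KO against 329 and 345 in WT, and its groups did not overlap either (limma adjusted p = 0.317). Rplp1 had 487 and 616 in Klf9 KO against 373 and 517 in WT, and Rpsa had 342 and 449.9 against 277 and 373. In both of these Klf9 KO-1 lay below WT-2.

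Other members with high recovered values were not called either. Rps2, a small subunit protein at the entry of the message channel, had 752 and 909 in Klf9 KO and 785 and 1036 in WT (log2 fold change -0.13 ± 0.25, SE; limma adjusted p = 0.710). Rpl23a, at the exit of the tunnel, had 463 and 539 in Klf9 KO and 451 and 628 in WT, and Rpl28 had 484 and 614 against 409 and 469.5. Rps14, a small subunit protein of the platform, was among the 4 with the smallest distance between the WT libraries. It had 402 and 457 in Klf9 KO against 289 and 323 in WT, without overlap, and did not pass (log2 fold change 0.49 ± 0.22, SE; limma adjusted p = 0.0966). It was called higher with equal sums, with neither trend nor robust moderation and without either WT library.

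Rpl36, a large subunit protein, rose in Klf9 KO hearts. It stood at 210.1 and 249.9 in Klf9 KO, against 129 and 119.5 in WT. Both knockout libraries were above both WT libraries, and each of the 4 deposited ratios was between 0.70 and 1.06. This is a log2 difference of 0.88 ± 0.21 (SE, 2 libraries in each group; limma adjusted p = 0.00906).

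Rps16, a small subunit protein whose tail reaches the decoding site, rose as well. It stood at 248 and 321 in Klf9 KO, against 152 and 184 in WT, again without overlap. This is a log2 difference of 0.75 ± 0.23 (SE, 2 libraries in each group; limma adjusted p = 0.0264). Rps20, of the head of the small subunit, stood at 29.4 and 36.1 in Klf9 KO, against 17.6 and 24.5 in WT. It passed narrowly, at a log2 difference of 0.63 ± 0.22 (SE, 2 libraries in each group; limma adjusted p = 0.0411).

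The 3 increases did not pass without Klf9 KO-1 or without Klf9 KO-2. In those fits the spread comes from the WT libraries alone. These lay further apart in the members (median log2 distance 0.56, against 0.27 in Klf9 KO). Klf9 KO-2 is the library whose Y-linked genes go against its label. Without Klf9 KO-1 the log2 fold changes were 1.002 for Rpl36, 0.94 for Rps16 and 0.77 for Rps20, larger than with all 4 libraries, and without Klf9 KO-2 they were 0.75, 0.57 and 0.48. Rps16 and Rps20 did not pass with no filter either, nor Rps20 after median-of-ratios scaling. The limma adjusted p over all alternatives ranged from 0.000403 to 0.202 for Rpl36, from 0.00172 to 0.379 for Rps16 and from 0.000660 to 0.369 for Rps20.

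Rpl34, a large subunit protein, was the member that fell. It stood at 52.4 and 57.4 in Klf9 KO, against 128 and 229.8 in WT. All knockout values were below all WT values, although the WT libraries were themselves apart by a log2 ratio of 0.85. This is a log2 difference of -1.62 ± 0.28 (SE, 2 libraries in each group; limma adjusted p = 0.00179). In the authors' deposited table the log2 ratio of the groups for Rpl34 was -1.58.

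A copy of Rpl34 in the genome moved the other way. Rpl34-ps1, which GENCODE lists as a processed pseudogene and RefSeq as a gene, stood at 136 and 147 in Klf9 KO, against 0.01 in both WT libraries, where 0.01 can stand for 0. Its 354-base transcript matched an Rpl34 transcript at all but 2 bases. The sources used here do not say how the authors divided reads between near-identical copies. The labels give the strain of neither group, so a difference in strain and the knockout cannot be told apart for this row. When the values of both rows were added, a step chosen after seeing the data that takes both to be on 1 scale, the sum was 188 and 204 in Klf9 KO, against 128 and 229.8 in WT. The summed values of the knockout lay between those of WT, as for many other members, at a log2 difference of 0.20 ± 0.28 (SE, 2 libraries in each group; limma adjusted p = 0.607). No member was then called lower, while Rpl36, Rps16 and Rps20 were still called higher.

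**Figure D3:**
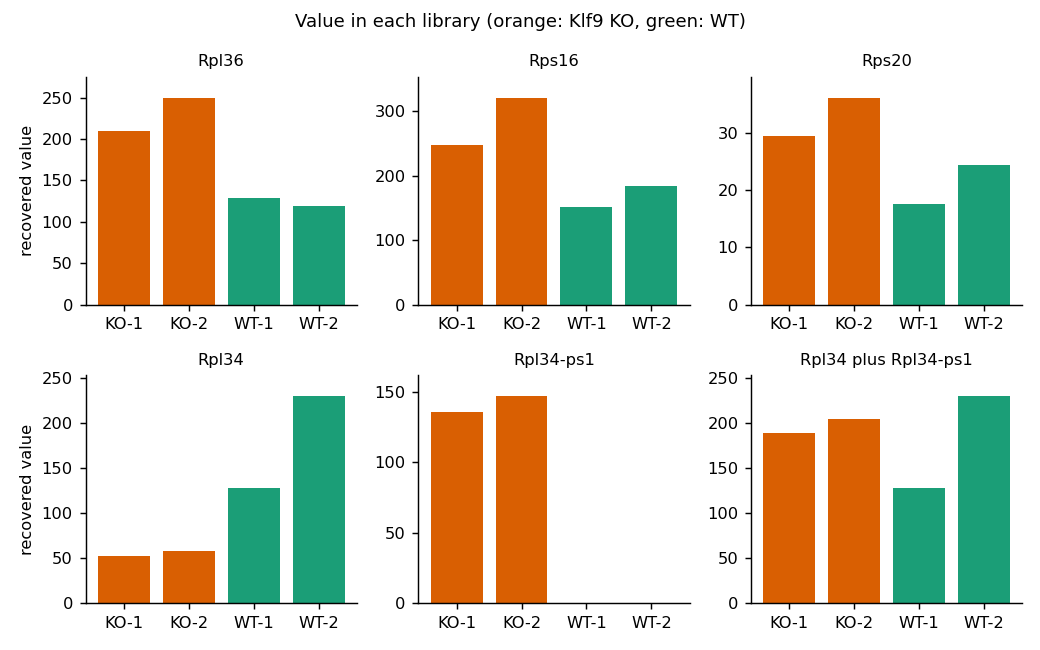
Recovered value in each library for the 4 members that passed the test, for Rpl34-ps1 and for the sum of Rpl34 and Rpl34-ps1 (vertical axes start at 0 and differ between panels). Rpl34-ps1 had 136 and 147 in the Klf9 KO libraries and 0.01 in each WT library, and the sum with Rpl34 placed Klf9 KO between the WT libraries.

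The table held 3 more rows named as copies of members. Rps27rt, whose transcript was identical to Rps27 over 341 aligned bases, rose (48.3 and 39.6 in Klf9 KO, against 29.25 and 27.6 in WT; log2 fold change 0.60 ± 0.19, SE; limma adjusted p = 0.0284). Rps27 itself, with 260.5 and 294.5 in Klf9 KO and 289.99 and 487 in WT, did not pass (-0.44 ± 0.28), nor did their sum (-0.33 ± 0.27). Rpl37rt and Rpl31-ps12 matched Rpl37 and Rpl31 at all but 1 and 4 aligned bases, and neither the copies nor their sums with the parent gene passed.

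With all 4 libraries, none of the 4 X-linked members was called, beside 27.7% of all tested genes called higher and 17.0% lower. Nor was any gene of the pairs Rps27 and Rps27l or Rpl36a and Rpl36al. The paralogs Rpl39l, Rpl10l and Rps4l were not among the members. Rps27l, a p53-responsive paralog of Rps27, had 50.5 and 61.0 in Klf9 KO and 39.8 and 69.8 in WT, so both knockout libraries lay between the WT ones. Rpl36al had 72.7 and 74.3 in Klf9 KO and 54.9 and 103 in WT, and its X-linked paralog Rpl36a had 149.9 and 184 in Klf9 KO and 106 and 190.5 in WT. Of the other X-linked members, Rps4x, a small subunit protein, had 464 and 528 in Klf9 KO against 255 and 395 in WT, and its groups did not overlap (log2 fold change 0.64 ± 0.26, SE; limma adjusted p = 0.0753). Rpl10, which lies near the transfer RNA sites, had 417 and 542 in Klf9 KO against 288 and 367 in WT, and Rpl39 of the peptide tunnel had 152 and 166 against 84.3 and 146. In both the knockout libraries were above WT, in Rpl39 by a small margin, and neither passed. Rps4x, Rpl10 and Rpl39 were called higher with equal sums and without WT-2, and Rps4x also with the replicate block (limma adjusted p = 0.0203) and with neither trend nor robust moderation (0.0499).

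Leaving out a WT library changed the count of calls more than any other step. Without WT-2, 48 of 77 members were called higher and 1 lower, beside 32.9% and 19.1% of all tested genes. Without WT-1, 6 were higher and 14 lower, beside 35.7% and 26.9% of all tested genes. The members' median log2 fold change was 0.48 without WT-2 and -0.07 without WT-1. With a single WT library its spread is taken to be like that of the knockout libraries, which lay closer together (median log2 distance 0.27 in the members, against 0.56 in WT). Among the 14 that were lower without WT-1 were Rpl4, Rpl7, Rpl17, Rpl21, Rps24, Rps25 and Rpl34. Of these 14, only Rpl34 was lower when WT-1 was kept and WT-2 left out.

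**Figure D4:**
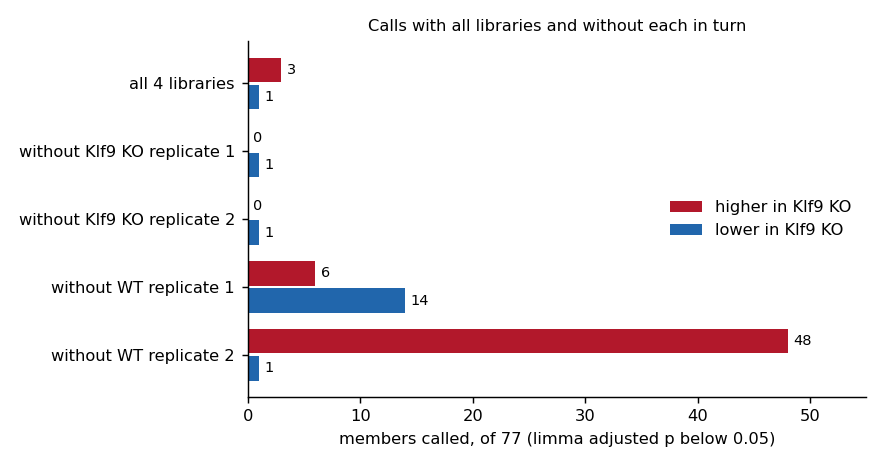
Number of the 77 tested members called higher or lower in Klf9 KO (horizontal axis) with all 4 libraries and without each library in turn. Calls among all tested genes also grew in number without a WT library and shrank without a Klf9 KO library, in both directions. The count of higher members goes to 48 without WT-2 and to 0 without either Klf9 KO library, and that of lower members to 14 without WT-1.

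The authors' own tests called most members. In the authors' deposited table, 55 of the 77 members were higher and 10 lower at a DEGseq q below 0.05, beside 41.3% and 28.7% of all genes with a q. Of those 65 members, 61 did not pass limma. At q below 0.001 with an absolute log2 ratio of at least 1, the authors' deposited table had 0 members higher and 1 lower, Rpl34. Among the 77, only Rpl34 had a group ratio of that size. The share of all genes at this limit was not computed. At a Poisson p below 0.05, the authors' deposited table had 65 members higher and 4 lower for Klf9 KO-1 over WT-1, beside 36.4% and 23.0% of all genes, and 73 and 1 for Klf9 KO-2 over WT-1, beside 37.9% and 23.4%. Against WT-2, the authors' deposited table had 14 higher and 47 lower for Klf9 KO-1, beside 35.2% and 27.6%, and 38 and 25 for Klf9 KO-2, beside 36.3% and 27.7%. The authors' deposited table gave 35 members in which Klf9 KO-1 was higher than WT-1 and lower than WT-2, each at a Poisson p below 0.05, and 21 for Klf9 KO-2. Such opposite calls were made in 2.54% and 2.37% of all genes with both ratios, a background that also holds genes too low for the filter. A mean value of at least 100 was reached by 68 members and by 550 other tested genes. The part of level in these calls was not tested. The reverse order, lower than WT-1 and higher than WT-2, was called in 0 members.

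The members' messages are short, and short messages as a class were apart between the WT libraries. By the longest principal transcript in GENCODE vM21, the members had a median mRNA length of 878 bases (345 to 5179), against 3026 over all tested genes, of which 98.6% had a length. Among 629 other tested genes with an mRNA under 1000 bases, the median log2 ratio of WT-2 over WT-1 was 0.43. It was 0.20 in 2483 genes of 1000 to 2000 bases, 0.04 in 4867 genes of 2000 to 4000 bases and -0.17 in 3905 longer genes. Among 113 other genes with an mRNA under 1000 bases and a mean value of at least 100, the median was 0.45. The part of message length in the members' values was not tested.

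**Figure D5:**
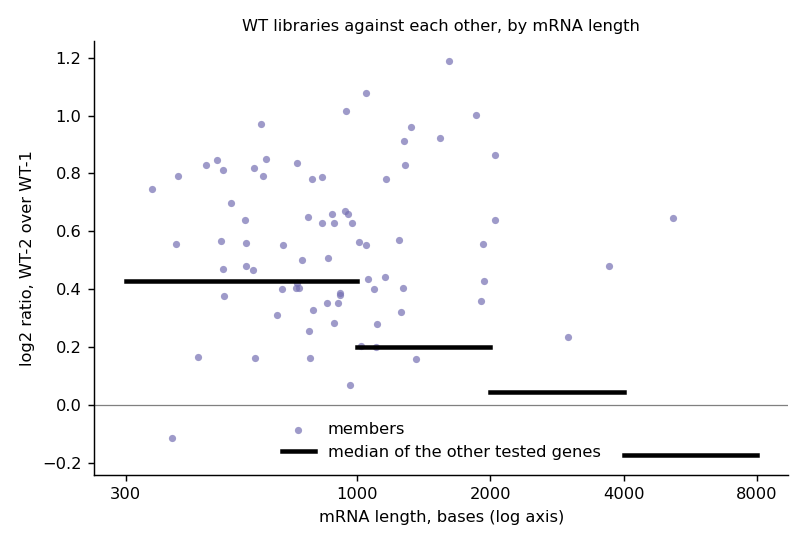
Log2 ratio of WT-2 over WT-1 for each tested member (points) by mRNA length in bases on a log axis, with the median of the other tested genes in 4 length classes (bars). The class medians go from 0.43 under 1000 bases to -0.17 above 4000 bases, and members lie at 0.56 in the median.

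For the short classes of other genes, the difference between the groups was read as recovered only, and scaling moved that of the members. The median log2 fold change of the 629 other short genes was -0.21 and that of the 113 short genes with high values -0.36, against 0.24 in the members. The 78 tested genes of the mitochondrial ribosome, a separate ribosome inside mitochondria, had WT-2 above WT-1 by a median log2 ratio of 0.44. In Klf9 KO 38 of the 78 fell and 0 rose by limma, beside 17.0% and 27.7% of all tested genes, and 50 had an unadjusted p below 0.05, with a median log2 fold change of -0.55. Against WT-1 their medians were -0.43 for Klf9 KO-1 and -0.34 for Klf9 KO-2 in the authors' deposited table, and against WT-2 they were -0.86 and -0.76, so here both WT libraries gave the same sign. The difference between these gene families was not tested.

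Genes that work with the ribosome were read in 6 lists. Their counts with all 4 libraries stand beside 27.7% of all tested genes called higher and 17.0% called lower. Eef1a1, the general form of the elongation factor that brings transfer RNA to the ribosome, stood at 2099 and 2301 in Klf9 KO, against 496 and 592 in WT (log2 fold change 2.02 ± 0.23, SE; limma adjusted p = 0.000247). Eef1a2, the form of adult muscle and neurons, fell, with 496 and 513 in Klf9 KO against 1026 and 705 in WT (-0.75 ± 0.25, SE; limma adjusted p = 0.0385), and was picked after its value was seen. Eef2, which moves the ribosome along the message, had 785 and 836 in Klf9 KO against 481 and 434 in WT. It passed with all 4 libraries (0.82 ± 0.22; limma adjusted p = 0.0151) and not without either knockout library in turn.

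Of 13 tested elongation and termination factors, 2 rose and 3 fell. The termination factor Etf1 (22.8 and 23.9 in Klf9 KO, against 42.3 and 46.8 in WT) and Eef1e1, a partner of transfer RNA synthetases (6.05 and 6.14 against 8.17 and 13.1), completed those that fell. Fewer genes of this list, and fewer of all tested genes, were called without Klf9 KO-1 or without Klf9 KO-2. Of 9 tested fused ribosomal proteins and ribosome-bound factors, 2 rose and 7 did not pass. Pabpc1, the poly(A) tail binding protein whose message is itself of the TOP class, had 241 and 260.1 in Klf9 KO against 104 and 85.5 in WT (1.40 ± 0.21, SE; limma adjusted p = 0.000910). Rack1, a scaffold on the small subunit, had 278 and 318 in Klf9 KO against 179 and 205 in WT (0.63 ± 0.21; limma adjusted p = 0.0397), and did not pass after median-of-ratios scaling, with no filter or without either knockout library. In this list too, fewer genes were called higher without Klf9 KO-1 or without Klf9 KO-2, as among all tested genes.

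Initiation factors went both ways. Of 36 tested, 3 rose, 4 fell and 29 did not pass. Eif6, which keeps free subunits apart, had 23.5 and 27.0 in Klf9 KO against 14.8 and 12.3 in WT, and the scaffold Eif4g3 had 36.7 and 33.8 against 23.3 and 14.7. Eif3j1, a subunit of the factor eIF3, fell (8.11 and 7.77 in Klf9 KO against 16.8 and 22.6 in WT; log2 fold change -1.20 ± 0.19, SE; limma adjusted p = 0.00128), as did the helicase Eif4a2 (82.1 and 75.7 against 121 and 179.6). More genes of the list were called higher without WT-1 or without WT-2, and more were called lower without WT-1. Fewer were called without either knockout library in turn. The same holds for all tested genes.

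Of 15 tested genes of RNA polymerase I, which makes ribosomal RNA, 1 rose, 1 fell and 13 did not pass. Polr1e rose (11.2 and 11.0 in Klf9 KO against 3.54 and 4.48 in WT; log2 fold change 1.28 ± 0.17, SE; limma adjusted p = 0.000559) and Taf1a fell (3.98 and 3.58 against 6.99 and 8.0). Of 55 tested assembly factors, 3 rose and 7 fell and 45 did not pass. Nol6 (11.25 and 13.02 in Klf9 KO against 9.02 and 6.11 in WT) and Nol9 (6.57 and 6.99 against 4.95 and 4.06) rose, and neither passed after median-of-ratios or upper quartile scaling, with no filter, or without WT-2 or either knockout library. Pno1 (11.09 and 11.12 in Klf9 KO against 19.0 and 32.5 in WT) and Sbds (15.03 and 17.4 against 26.6 and 39.99), which prepares the large subunit for use, fell. Without WT-1 the assembly list had 6 higher and 20 lower genes and the polymerase list 5 and 5, beside 35.7% and 26.9% of all tested genes. Without WT-2 the assembly list had 6 higher genes, and the polymerase list 2 in each direction, beside 32.9% and 19.1%. Without Klf9 KO-1 the assembly list had 0 higher and 1 lower gene, beside 18.1% and 10.3%, and without Klf9 KO-2 it had 0 and 2, beside 15.3% and 9.06% (limma).

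Among 21 tested regulators of ribosome production and TOP translation, 4 rose and 1 fell. Mycn, a MYC factor active in the growing heart, had 6.70 and 7.16 in Klf9 KO against 1.41 and 2.16 in WT (log2 fold change 1.52 ± 0.19, SE; limma adjusted p = 0.000357). Eif4ebp1, an mTOR target that holds back cap-dependent initiation, had 142 and 180.4 in Klf9 KO against 60.1 and 77.2 in WT (1.22 ± 0.22; limma adjusted p = 0.00257). Max, the partner of MYC factors, had 21.0 and 19.2 in Klf9 KO against 35.6 and 44.3 in WT and fell (-0.95 ± 0.19; limma adjusted p = 0.00398). More genes of this list were called in both directions without WT-1, and fewer without Klf9 KO-2, as among all tested genes.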

How the data were processed

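The table was deposited by the authors and holds comparisons only. Its columns, per the file headers, are log2 ratios of 4 library pairs, each with a Poisson p-value, and a DEGseq log2 ratio of the groups with p-values and q-values. Its 4 columns of pairwise false discovery rates were not used. For the underlying values, aligner, build, annotation and unit are not given in the sources used here.

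Per-library values were recovered from the 4 ratios, which were additive to 9.95e-14, as the smallest whole numbers that give them, read in steps of 0.01. All 17485 genes were resolved. Where the 4 whole numbers of a gene had a common divisor (expected in 7.61% of genes), it cannot be recovered, which lowers that level and no ratio. The direction, Klf9 KO over WT, was read from the column names. Sums per library were 409359 and 418974 in Klf9 KO and 426032 and 489534 in WT, and no depth or counting interval can be given.

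Differences were tested with limma 3.58.1 (trend and robust) in R 4.3.3 on log2(value + 1) for genes that reached 1 in 2 or more libraries, group as the only term, Benjamini-Hochberg over 12135 genes, threshold 0.05. This scale understates changes of low genes. A count test had no counts to work on. An exact permutation test of 2 against 2 libraries cannot go below p = 0.333 and was not used. Fits and recovery were tested on simulated data. Python 3.11.15, numpy 2.4.6, pandas 2.3.3 and matplotlib 3.10.9 did the rest.

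Members and lists were chosen with earlier results of these data known. Genes were named by rule: Klf9, the 6 members with the highest mean, up to 6 called members in each direction, the 4 with the largest and the 4 with the smallest distance between WT libraries, paralog pairs, stalk genes and Rpsa, and up to 2 called genes per direction of each list. Copies, X-linked and Y-linked genes, exceptions and Eef1a2 were named after their values were seen. Protein sequences were not used here. Alternatives were other scalings, filters, pseudocounts and moderation, a replicate block, leaving out each library and summing copies.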

Additional observations from a re-analysis of the deposited data

How the results depend on the processing

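Members called higher numbered 3 with all libraries, beside 27.7% of all tested genes, and 1 with no filter, beside 18.4%. They numbered 15 with libraries scaled to equal sums (31.9%), 8 with neither trend nor robust moderation (27.5%) and 7 with the replicate block (29.0%). Members called lower numbered 0 when copies were summed with their parent genes, a step added after seeing the data, against 1. Leaving out each library in turn gave 0 to 48 members higher and 1 to 14 lower, and a median log2 fold change of the members from -0.072 to 0.48. Among all tested genes, more were called in both directions without WT-1 or without WT-2, and fewer without Klf9 KO-1 or without Klf9 KO-2. The ranges of the members' counts thus hold a shift that all tested genes shared. By the authors' deposited test the stricter limit gave 0 higher and 1 lower, with no share of all genes computed beside it. The median log2 ratio of WT-2 over WT-1 in the members, 0.56 as recovered, was 0.51 after median-of-ratios scaling, 0.49 after upper quartile scaling and 0.36 with equal sums, alternatives added after seeing the data. Scaling moved the split of all calls from 62.0% higher to 50.3% after median-of-ratios (RLE) scaling and 70.4% with equal sums, and the median of all tested genes from 0.12 to -0.01 and 0.24.

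In the lists of related genes, RLE scaling gave 1 higher bound or fused factor, 9 lower initiation factors, 2 lower polymerase I genes, 0 higher and 11 lower assembly factors and 2 lower regulators. Upper quartile scaling gave 2 lower polymerase I genes and 0 higher assembly factors. Equal sums gave 1 lower elongation factor, 6 higher initiation factors, 2 higher polymerase I genes and 3 lower assembly factors. With no filter there were 1 higher bound or fused factor, 1 lower elongation factor, 2 lower initiation factors, and 0 higher and 4 lower assembly factors. With neither trend nor robust moderation 5 initiation factors were higher, and with the replicate block 2 polymerase I genes were lower. Beside these stand the shares of all tested genes, higher and lower. They were 21.7% and 21.4% after RLE scaling, 25.5% and 19.1% after upper quartile scaling and 31.9% and 13.4% with equal sums. They were 18.4% and 10.3% with no filter, 27.5% and 17.1% with neither trend nor robust moderation, and 29.0% and 18.7% with the replicate block. Both shares of all tested genes were larger without WT-1 or without WT-2, and smaller without Klf9 KO-1 or without Klf9 KO-2. Leaving out each library in turn gave 1 to 3 higher and 0 to 1 lower bound or fused factors, 1 to 3 and 0 to 4 elongation factors, 1 to 7 and 1 to 12 initiation factors, 1 to 5 and 0 to 5 polymerase I genes, 0 to 6 and 1 to 20 assembly factors and 2 to 7 and 0 to 4 regulators.

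Some single log2 fold changes changed sign. Leaving out each library in turn gave -0.33 to 0.074 for Rps2, -0.33 to 0.15 for Rpl23a, -0.89 to 0.30 for Rps24, -0.39 to 0.68 for Rpl31, -0.65 to 0.36 for Rpl35, -0.93 to 0.058 for Rpl21, -0.33 to 0.47 for Rps27l, -0.20 to 0.64 for Rpl36a and -0.48 to 0.42 for Rpl36al. With equal sums the values were 0.015 for Rps2, 0.049 for Rpl23a and 0.10 for Rpl36al. Rps27l was -0.073 after RLE scaling, and Rpl34 summed with its copy was 0.20. The cause was not tested, except that leaving out a library uses fewer samples. Same-numbered libraries did not deviate together (correlation -0.04 over 12135 genes), and the labels give the numbers no meaning, so the samples are not taken as paired. In the members, though, library 2 lay above library 1 in 76 of 77 in each group. The replicate block moved the members called higher from 3 to 7, beside 27.7% and 29.0% of all tested genes.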
